A study of Caenorhabditis elegans with 2 samples.

Results

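The regions described here are the autosomal intronic regions of a list of ZAG-1 ChIP-seq regions from the nematode Caenorhabditis elegans. ZAG-1 ChIP-seq was done on whole L4 larvae of mixed sex, of strain OP83, whose genotype is unc-119(ed3) III with the insertion wgIs83. The insertion carries an eGFP-tagged zag-1 transgene, and the unc-119 allele is shared by all worms. The labels do not say which promoter drives the transgene. The labels name zag-1 as the antibody target in 1 field and the eGFP fusion in another. The study has 1 group with 2 biological replicates and no untagged group, so the comparisons are between classes of regions and between the replicates. From the 4010 regions that the authors called on both replicates together (ce11, the same assembly as WBcel235), those on chromosomes I to V were kept whose summit lay inside a protein-coding gene body and in no exon of any protein-coding transcript. This left 1036 regions, 25.8% of the list and 32.6% of its 3178 autosomal regions. They lay in 849 genes, 14 of them in the bodies of more than 1 gene, and 6 had no annotated intron of a protein-coding transcript at the summit. By chromosome, I held 241, II 173, III 205, IV 225 and V 192. The annotation also places 64 of them in an exon of a non-coding gene, and 10 overlap the member before them on the chromosome, so neighbouring members are not independent. Cells are not resolved in whole worms, so binding in few cells and weak binding in many cannot be told apart.

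ZAG-1 is the worm member of the ZEB family, transcription factors with clusters of zinc fingers around a homeodomain, known in this animal for roles in neuron differentiation and axon guidance. ZEB zinc fingers in vertebrates bind words of the form CAGGTA or CAGGTG. Introns are spliced out of the transcript, yet their DNA can hold enhancers, alternative promoters and whole genes for small RNAs. In C. elegans most introns are very short, and long introns are often found near the 5′ end of a gene.

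The summits that lead the intronic list differed in sequence, and the following windows, 100 bp to each side of the summit and read from the plus strand of the RefSeq WBcel235 genome, show the kinds met below. They are windows with a searched word from the strongest intronic regions on chromosomes II to V, a single window per gene, and the strongest one with a CAGGTA or CAGGTG word. Capitals mark searched words on both strands, namely the repeat word GAGAGA, the repeat word CACACA, the word CGTCTC, the word ACGCAG, the ZEB word (CAGGTA or CAGGTG) and the B box word GGTTCGA. A capital run of TCTCTC is thus GAGAGA on the other strand, and words that overlap run together. The windows are Y111B2A.12 (III:12612543-12612743), daf-5 (II:14040373-14040573), pqn-41 (III:1925306-1925506), zfp-1 (III:8795820-8796020), saeg-1 (V:10858468-10858668) and frm-7 (V:12303566-12303766).
Y111B2A.12: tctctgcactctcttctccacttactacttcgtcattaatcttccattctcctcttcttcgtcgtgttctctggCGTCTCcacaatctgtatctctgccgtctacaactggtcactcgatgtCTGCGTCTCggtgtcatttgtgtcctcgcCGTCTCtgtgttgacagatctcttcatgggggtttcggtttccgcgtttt
daf-5: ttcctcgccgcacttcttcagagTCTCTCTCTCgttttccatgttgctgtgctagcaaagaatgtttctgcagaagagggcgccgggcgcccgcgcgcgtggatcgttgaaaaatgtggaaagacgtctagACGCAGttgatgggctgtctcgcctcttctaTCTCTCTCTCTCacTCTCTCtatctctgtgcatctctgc
pqn-41: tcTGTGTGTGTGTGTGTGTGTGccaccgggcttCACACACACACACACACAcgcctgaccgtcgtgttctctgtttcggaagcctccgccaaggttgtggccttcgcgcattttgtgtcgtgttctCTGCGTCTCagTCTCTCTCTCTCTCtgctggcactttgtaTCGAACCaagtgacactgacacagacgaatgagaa
zfp-1: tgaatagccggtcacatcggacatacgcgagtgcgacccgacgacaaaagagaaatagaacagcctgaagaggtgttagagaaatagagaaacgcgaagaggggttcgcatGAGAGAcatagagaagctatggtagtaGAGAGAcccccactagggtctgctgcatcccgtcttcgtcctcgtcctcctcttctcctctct
saeg-1: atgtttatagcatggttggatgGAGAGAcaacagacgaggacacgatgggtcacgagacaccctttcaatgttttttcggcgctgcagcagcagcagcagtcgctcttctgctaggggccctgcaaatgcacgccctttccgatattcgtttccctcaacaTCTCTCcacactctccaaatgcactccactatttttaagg
frm-7: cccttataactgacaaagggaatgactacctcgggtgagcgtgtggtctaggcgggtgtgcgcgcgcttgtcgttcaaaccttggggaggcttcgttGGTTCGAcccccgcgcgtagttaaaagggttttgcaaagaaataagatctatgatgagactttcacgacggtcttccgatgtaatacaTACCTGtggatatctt
Y111B2A.12 and pqn-41 hold CTGCGTCTC, in which CGTCTC and the reverse complement of ACGCAG overlap. In daf-5, pqn-41, zfp-1 and saeg-1 the word GAGAGA is present. It forms longer runs in daf-5 and pqn-41, and stands as 2 separate words in each of zfp-1 and saeg-1. The frm-7 window lies over a pair of snoRNA genes and holds GGTTCGA, as does that of pqn-41 on the other strand, a core of the B box of genes transcribed by RNA polymerase III.

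Intronic regions passed the authors' reproducibility analysis (irreproducible discovery rate, IDR) less often than regions just upstream of genes. Of the 1036 intronic regions, 36 (3.47%, Wilson 95% interval 2.52 to 4.77) were IDR peaks, against 6.13% of all regions of the pooled list. Outside the exons of non-coding genes 972 of the 1036 remained, with 27 of the 36 IDR peaks (2.78%). Of 708 autosomal regions outside gene bodies and within 1000 bp upstream of a protein-coding start, 91 (12.9%, interval 10.6 to 15.5) were IDR peaks. The difference was -9.38 percentage points (Fisher's exact test, 2-sided, adjusted p = 1.06e-12 over 6 class comparisons). The other 701 intergenic regions had 32 IDR peaks (4.56%, difference -1.09, Fisher's exact test, adjusted p = 0.314) and the 733 exonic regions 18 (2.46%, difference 1.02, adjusted p = 0.314). Neither of those differences passed the threshold. The first of them passed with upstream narrowed to 500 bp (-2.35, Fisher's exact test, adjusted p = 0.0237) and turned with upstream widened to 2000 bp (0.317). The p-values and intervals are over regions of 1 combined list and not over worms, and cover counting error only.

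A measure taken from the replicate lists gave the same order. The strongest 4010 regions of each replicate, as many as the pooled list holds, together overlapped 115 intronic regions by at least 1 bp in both replicates (11.1%, interval 9.33 to 13.2), against 15.6% of all pooled regions. Upstream regions reached 191 of 708 (27.0%), which was 15.9 percentage points more (Fisher's exact test, adjusted p = 1.71e-16). Other intergenic regions reached 14.4%, and the difference of -3.31 points did not pass (Fisher's exact test, adjusted p = 0.0906), but did when upstream was narrowed to 500 bp (-4.58, adjusted p = 0.00738). Exonic regions reached 10.2% (difference 0.868, Fisher's exact test, adjusted p = 0.586), a difference that turned to -5.03 when replicate 1 alone was used.

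**Figure D1:**
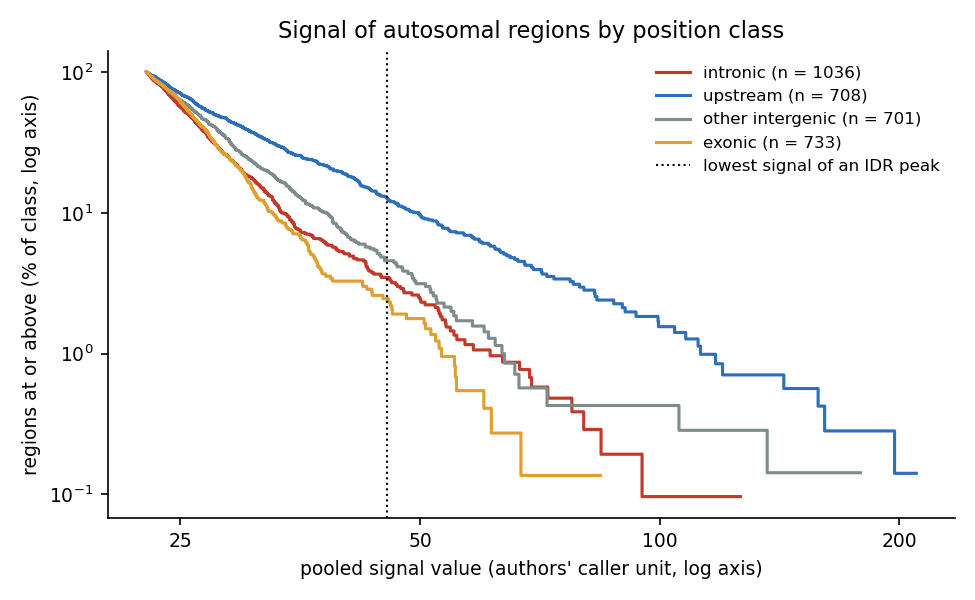
Share of the autosomal regions of each position class (percent, log axis) at or above each pooled signal value (log axis), with the lowest signal of an IDR peak as a dotted line. The intronic curve runs close to the exonic and other intergenic curves and below the upstream curve, with 36 of 1036 intronic and 91 of 708 upstream regions right of the line.

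Most intronic regions were weak. Signal values are the authors' own, 1 per region and with no replicate error. They ran from 22.7 to 126 over the intronic regions, with a median of 25.6 and an upper quartile of 28.7. Medians were 27.6 for upstream, 26.3 for other intergenic and 25.8 for exonic regions. The 36 intronic IDR peaks spanned 45.7 to 126 (median 53.5), and the strongest other intronic region had 44.7, so the IDR peaks are the strongest intronic regions. Among intronic regions the IDR share is thus also the share above a cut in pooled signal. The authors' q-value was at or below 0.05 in 48 intronic regions, namely all 36 IDR peaks and 12 others. The median −log10 q was 0.0812, and the authors describe this list as holding background as well as peaks. Of the 100 strongest pooled regions, 10 were autosomal intronic and 41 upstream. On chromosome X, 8 of 228 intronic regions were IDR peaks (3.51%), and the difference from the autosomes was not tested.

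The hosts of the strongest intronic peaks are given here by role, and those roles were grouped after the values were seen and not tested. The gene zfp-1, whose product is the worm relative of the mammalian AF10 chromatin factor, held 3 IDR peaks. At III:8795750-8796089 the signal was 80.3 in the pooled list, 45.8 in replicate 1 and 40.04 in replicate 2. The other peaks of zfp-1, at III:8802009-8802348 and III:8800294-8800633, had 68.6 and 63.5 in the pooled list. The start nearest to the summit of the peak at III:8800294-8800633, 237 bp away, was that of another gene, F54F2.6. A further member in zfp-1, at 44.6, fell just short of the IDR set. The gene let-526, which encodes an ARID subunit of the SWI/SNF chromatin remodelling complex, held peaks of 54.6 and 52.7. In pbrm-1, a bromodomain subunit gene of the same family of complexes, the peak reached 66.7 in the pooled list, 40.4 in replicate 1 and 28.4 in replicate 2. The cohesin loader gene scc-2 had 56.9 and the Mediator subunit gene mdt-26 had 55.2. The peak of scc-2 lay 152 bp upstream of another annotated start of scc-2 itself.

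Hosts in signalling included members of the TGF-beta pathway that controls dauer formation. daf-5, the Ski homologue that acts with the Smad DAF-3, had the second strongest intronic peak, at II:14040303-14040642 in intron 1 of 14446 bp. Its signal was 95.04 in the pooled list, 48.0 in replicate 1 and 39.7 in replicate 2, where it ranked 60 and 35. daf-14, a Smad gene of this pathway, had 52.8 in the pooled list, and its replicate ranks of 213 and 1011 were further apart. In mnk-1, which encodes a MAP kinase-interacting kinase, the signal was 58.3 and the ranks were 87 and 747. saeg-1, a suppressor gene of activated egl-4, had 69.0, with ranks of 71 and 88.

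The strongest intronic peak of all lay in intron 4 of Y111B2A.12, a gene whose RefSeq product has WD repeats. At III:12612473-12612812 it had a signal of 126 in the pooled list, 75.3 in replicate 1 and 44.2 in replicate 2, with ranks of 21 and 28. Its summit was 3354 bp downstream of the nearest annotated start, so it is well inside the gene, and it was the only autosomal intronic region among the 25 strongest of the pooled list. T28F4.1, with a SERTA domain per RefSeq, had 84.4 (replicate ranks 48 and 64), and pqn-41, a polyglutamine-repeat protein gene, 77.6 (37 and 229) and 53.3 (164 and 176). dhc-4, a dynein heavy chain gene, had 72.4 (63 and 77). The peak in ocrl-1, related to the human inositol phosphatase gene OCRL, had 61.2, and lay 383 bp upstream of eat-16, a gene for a regulator of G protein signalling. The peak in T24B8.3 had 55.6.

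The other 17 intronic IDR peaks spanned 45.7 to 53.9. Among them were the G protein beta subunit gene gpb-1 (52.2), the Rab2 gene unc-108 (50.1), the ESCRT-II gene vps-25 (49.8), the MADS-box factor gene mef-2 (47.3), the bZIP factor gene zip-2 (46.8), the forkhead gene fkh-7 (46.0) and the chaperone gene hsp-90 (45.7). Just outside the set were dos-1 at 44.7, zfp-1 at 44.6, rhgf-3 at 43.7, the cAMP phosphodiesterase gene pde-4 at 43.4 and the MAP kinase phosphatase gene vhp-1 at 43.1. The values just inside and just outside were thus about 1 signal unit apart.

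The intronic IDR peaks were strong in replicate 1 more often than in replicate 2. The lists differ in length (11750 regions in replicate 1 and 30000 in replicate 2) and in scale, so ranks are compared. Of the 36 peaks, 30 had a region among the 246 strongest of replicate 1, 20 among those of replicate 2, 15 in both and 1, in frm-7, in neither. At hsp-90 replicate 2 had no region, while replicate 1 ranked it 88. T24B8.3 ranked 105 in replicate 1 and 4031 in replicate 2, and vps-25 191 and 3006. The reverse held for zip-2, which ranked 1348 in replicate 1 and was among the 246 strongest of replicate 2. Of the 36, 34 were overlapped by the strongest 4010 of both replicates, hsp-90 and T24B8.3 being the exceptions, against 81 of the other 1000 (8.1%). The authors made the IDR set from the same replicates, so this is a description. The same counts over the whole IDR set of 246 peaks are not given here. Whether the difference between the replicates is particular to intronic peaks was not tested.

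**Figure D2:**
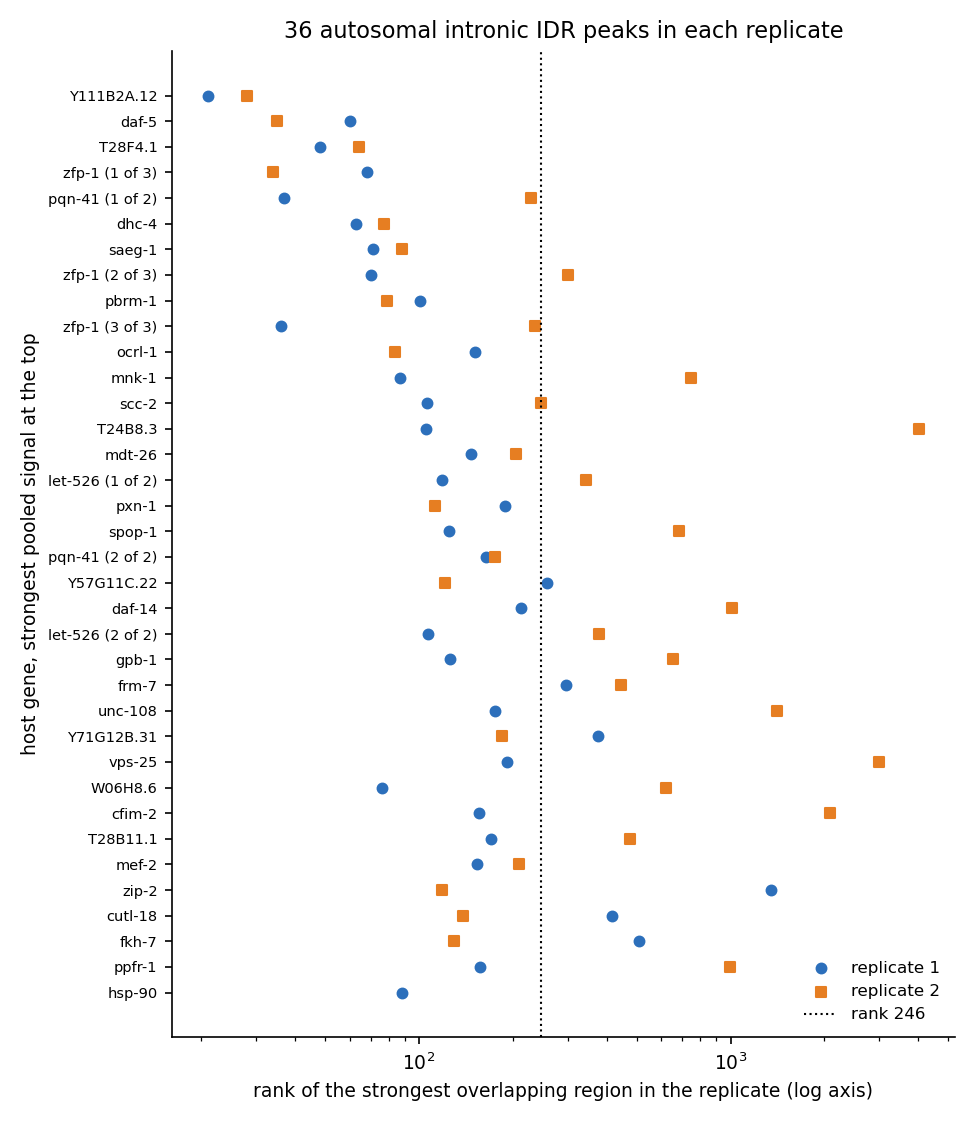
Rank of the strongest overlapping region in replicate 1 (circles) and replicate 2 (squares) for the 36 autosomal intronic IDR peaks (log axis), ordered by pooled signal, with rank 246 dotted. Replicate 1 placed 30 of them at or under rank 246 and replicate 2 placed 20, and hsp-90 has no replicate 2 point.

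Below the IDR set the replicates hardly ranked the same intronic regions high. A region of replicate 1 overlapped 768 members and one of replicate 2 overlapped 792, and 544 had both. Across the 509 of these outside the IDR set, Spearman's rank coefficient of the replicate signals was -0.0552, and Pearson's r of their log2 values was 0.0396. Across 35 IDR peaks the rank coefficient was 0.268 and r was 0.336, and across all 544 they were 0.115 and 0.339. Across all autosomal regions of the pooled list, intronic or not, the rank coefficient was 0.208. These values are across regions of the same 2 libraries, chosen by their combined signal, and are given as descriptions. Of the other 1000 members, 14 were among the 246 strongest of replicate 1, 18 among those of replicate 2 and 3 in both. In 2 of those 3, in daf-5 and pbrm-1, the replicate region was the one that also overlaps the IDR peak beside it.

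Within genes, the IDR peaks lay in the first intron more often than the weaker regions. For 21 of 36 IDR peaks (58.3%) the summit was in an intron before exon 2 of some transcript, against 390 of 1000 others (39.0%), a difference of 19.3 percentage points (Fisher's exact test, 2-sided, adjusted p = 0.0358 over 3 position comparisons). With only the strongest region of each gene the difference was 16.7 points and did not pass (Fisher's exact test, adjusted p = 0.0945). Examples in first introns were daf-5, T28F4.1, zfp-1, saeg-1, mnk-1 and scc-2, and examples outside were Y111B2A.12 (intron 4), pbrm-1 (intron 3) and ppfr-1 (intron 5). Intron length moved with this. The intron at the summit had a median of 2772 bp for IDR peaks (64 to 17091) and 1019 bp for the others, and 27 IDR peaks (75%) against 504 others (50.4%) were in introns over 1000 bp. That second share is near what intron space gives, since 51.9% of the bases in the 90275 distinct autosomal introns lie in introns over 1000 bp, although these are 7.98% of the introns. The part of intron length in the first-intron difference was not tested.

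Nearness to an annotated start did not separate the strong from the weak intronic regions. A start of any protein-coding transcript lay within 1000 bp of 16 IDR summits (44.4%) and of 439 others (43.9%), a difference of 0.544 points (Fisher's exact test, adjusted p = 1). By side, 13 IDR summits (36.1%, interval 22.5 to 52.4) lay within 1000 bp upstream of a start, against 219 others (21.9%, interval 19.4 to 24.6), and this split was not tested. Of the 13, 11 lay before another start of the host gene, as in vps-25 (51 bp), scc-2 (152 bp), zip-2 (192 bp) and unc-108 (523 bp). The other 2 lay before another gene, at ocrl-1 (383 bp before eat-16) and hsp-90 (308 bp before C47E8.4). A further 20 IDR summits were over 1000 bp from any start, and the summits of pxn-1 (5662 bp) and ppfr-1 (8230 bp) were over 5000 bp away.

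**Figure D3:**
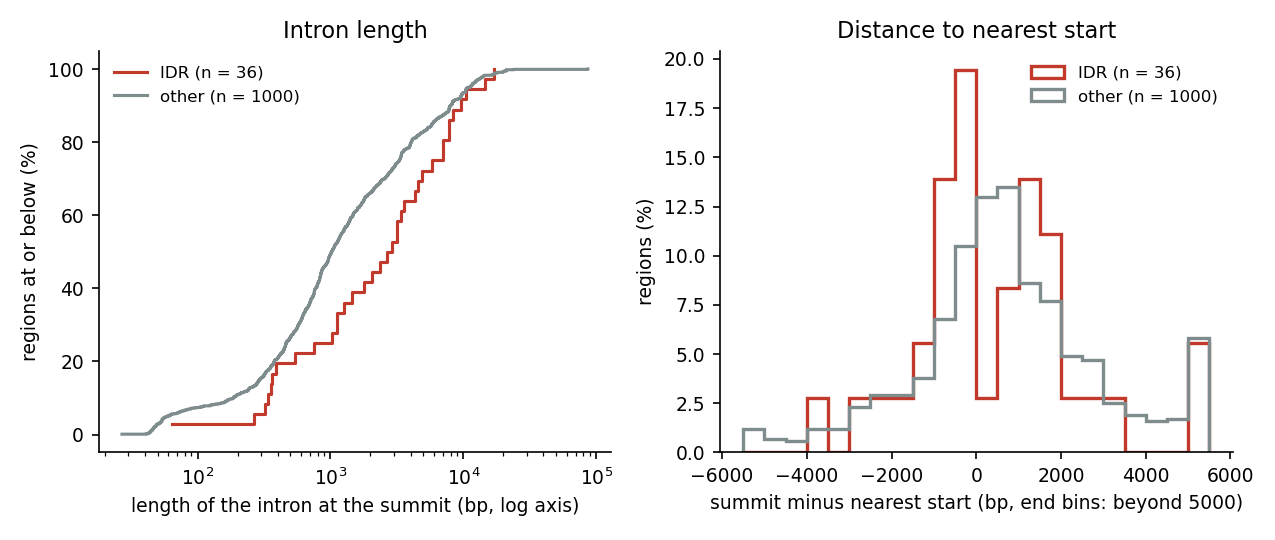
Left, share of the 36 intronic IDR peaks and of the other 1000 intronic regions (percent) whose summit intron is at or below a length (bp, log axis). Right, share of regions (percent) by the signed distance from the nearest protein-coding start to the summit (bp, negative upstream). IDR peaks lie in longer introns (median 2772 against 1019 bp), and 44.4% against 43.9% lie within 1000 bp of a start.

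A small group of peaks sat at small RNA genes inside introns. Small RNA genes here are tRNA, snoRNA, snRNA, rRNA and miRNA genes; snoRNAs guide the modification of other RNAs and snRNAs serve splicing. Within 100 bp of one lay 44 intronic summits, of which 5 were IDR peaks (13.9% of 36) and 39 were not (3.9% of 1000). The difference of 9.99 percentage points passed (Fisher's exact test, 2-sided, adjusted p = 0.0358), but rests on 5 peaks. It did not pass with the strongest 246 regions of replicate 2 (3.79 points, Fisher's exact test, adjusted p = 0.324) or of replicate 1 (7.43, adjusted p = 0.0518) in place of the IDR set, or with 1 region per gene (11.1, adjusted p = 0.0539). All 5 hosts had short introns at the summit, of 267 to 360 bp.

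The strongest of these peaks was that in dhc-4, with a signal of 72.4. In pxn-1, a peroxidasin gene, the signal was 53.9 and the summit lay 28 bp upstream of the snoRNA gene ZK994.7. In frm-7 the signal was 50.7, and the summit lay 42 bp upstream of C51F7.3 and 67 bp into C51F7.4. The summit in cfim-2 (47.7) lay 10 bp upstream of D1046.6, and that in cutl-18 (46.6) lay 6 bp upstream of T03F7.8, which runs opposite to its host. The summits of these 4 snoRNA gene hosts thus each lay upstream of a snoRNA gene, and that in frm-7 also lay within another. Over all intronic regions, these included, the summit lay upstream in 10 of 23 pairs of summit and snoRNA gene. For all small RNA genes it did so in 20 of 47 pairs.

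By type, 22 intronic regions lay at snoRNA genes, with signals of 22.9 to 53.9 and 4 IDR peaks. At tRNA genes lay 16, with signals of 24.2 to 44.7 and 0 IDR peaks, and the strongest of them was in dos-1. IDR peaks were 3.47% of all intronic regions, so 0 of 16 can occur at that share. Regions at tRNA and at snoRNA genes were not compared by a test. The word GGTTCGA was in 8 of the 16 windows at tRNA genes, 3 of the 22 at snoRNA genes and 25 of the 992 away from small RNA genes (2.52%), against 101 of all 4010 windows (2.52%). Among the IDR peaks it was in 4 of 36 (11.1%), of which frm-7 was the only one at a small RNA gene, and pqn-41 was among the others. The word is part of the transcribed sequence of many tRNA genes. At miRNA genes lay 4 regions and at snRNA genes 2. Genes annotated as ncRNA, not counted among small RNA genes, lay within 100 bp of 69 intronic summits, of which 8 were IDR peaks. Those of T28F4.1, ocrl-1 and gpb-1 were among the 8, as were those of cfim-2 and cutl-18, also at snoRNA genes. This count was not tested. Host and small RNA gene ran in the same direction in 31 of 47 pairs.

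The GA repeat, the CA repeat and the words CGTCTC and ACGCAG were more frequent at strong than at weak intronic summits, and the ZEB word was not. The 5 compared words were chosen with earlier results on the IDR peaks of these data known, so their excess here is not independent evidence. GAGAGA was in 23 of 36 IDR windows (63.9%, interval 47.6 to 77.5) and in 177 of 1000 others (17.7%), a difference of 46.2 percentage points (Fisher's exact test, 2-sided, adjusted p = 1.35e-08 over 5 words). CGTCTC was in 16 (44.4%) against 86 (8.6%; Fisher's exact test, adjusted p = 8.76e-08), ACGCAG in 14 (38.9%) against 78 (7.8%; adjusted p = 9.02e-07) and CACACA in 13 (36.1%) against 137 (13.7%; adjusted p = 0.00105). The ZEB word CAGGTA or CAGGTG was in 3 (8.33%, interval 2.87 to 21.8) against 91 (9.1%; Fisher's exact test, adjusted p = 1). With the strongest 246 regions of replicate 2 in place of the IDR set it was in 0 of 38 against 9.42% (Fisher's exact test, adjusted p = 0.0525), and with 50 bp windows in 0 of 36 against 4.9% (adjusted p = 0.409). Over all 4010 windows these words were in 20.4% (GAGAGA), 12.2% (CGTCTC), 10.5% (ACGCAG), 14.6% (CACACA) and 8.73% (the ZEB word). The CACACA difference no longer passed with 50 bp windows (7.09 points, Fisher's exact test, adjusted p = 0.128) or with the strongest regions of replicate 2 (12.3, adjusted p = 0.0552). Nor did it pass for the 13 stronger IDR peaks against the 1023 remaining members, weaker IDR peaks included (8.71, Fisher's exact test, adjusted p = 0.521).

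Base composition moved with these words. The windows of the intronic IDR peaks had 50.6% ± 4.99 G and C (SD over 36 windows) and those of the other intronic regions 35.9% ± 8.16 (SD over 1000), while the bases of autosomal introns as a whole had 32.4%. Windows 500 bp to each side of the same IDR summits had 38.5% ± 6.12, and the summit window was richer than its flanks in 33 of 36. The lowest IDR window, at 39.8%, was reached by 31.8% of the other windows. Among windows of 45 to 55% G and C, 22 of the IDR peaks and 128 others, GAGAGA was in 63.6% against 36.7% (Fisher's exact test, adjusted p = 0.0814) and CGTCTC in 10 of 22 against 32 of 128 (adjusted p = 0.117). CACACA was in 40.9% against 32.8% of them (Fisher's exact test, adjusted p = 0.591), and ACGCAG in 11 of 22 against 28 of 128, the one that still passed (adjusted p = 0.0432). So within similar base composition the differences were smaller for all 4 words, in fewer regions.

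Against upstream IDR peaks, the intronic IDR peaks differed in the GA repeat. GAGAGA was in 33 of 91 upstream IDR windows (36.3%), 27.6 percentage points fewer (Fisher's exact test, 2-sided, adjusted p = 0.0286 over 5 words). This call was lost with the strongest regions of replicate 2 (16.7 points, Fisher's exact test, adjusted p = 0.544) and with the stronger IDR peaks (33.9, adjusted p = 0.281). CGTCTC was in 38.5% of upstream IDR windows, ACGCAG in 35.2% and CACACA in 34.1% (Fisher's exact test, adjusted p = 0.839 for each), and the ZEB word in 2.20% (adjusted p = 0.344). Upstream IDR windows had 44.6% ± 6.64 G and C (SD over 91), lower than the intronic ones, and the part of this in the GAGAGA difference was not tested.

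**Figure D4:**
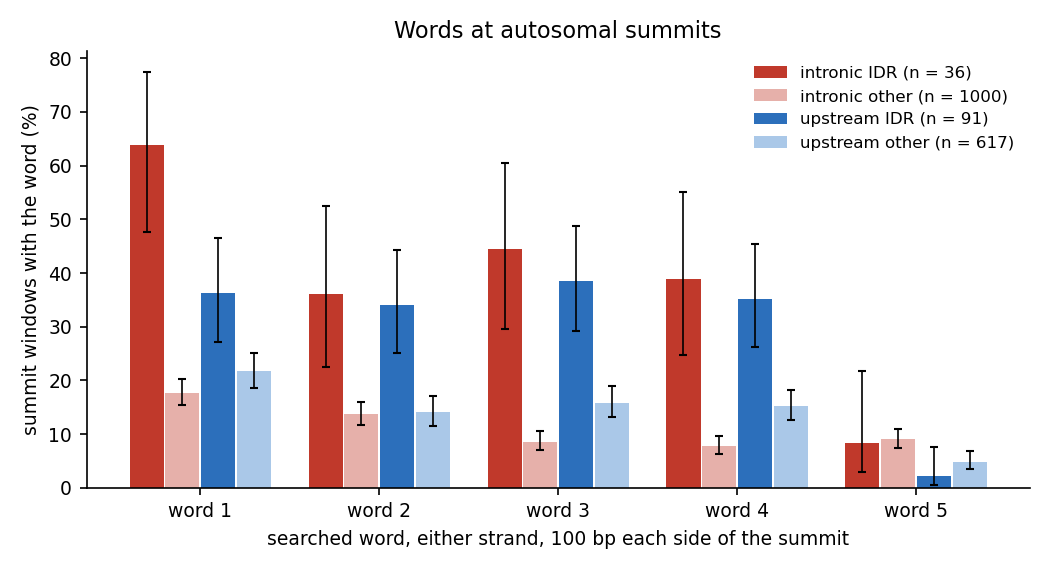
Share of windows (percent, 100 bp to each side of the summit, either strand, with Wilson 95% intervals) that hold word 1 (GAGAGA), word 2 (CACACA), word 3 (CGTCTC), word 4 (ACGCAG) and word 5 (CAGGTA or CAGGTG), for intronic and upstream regions in and outside the IDR set. Intronic IDR peaks stand above the other intronic regions for words 1 to 4, with 63.9% against 17.7% for word 1, and not for word 5.

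In the intronic IDR peaks GAGAGA and CGTCTC were most frequent close to the summits, and CACACA was not. Per 50 bp, GAGAGA occurred 0.833, 0.722, 0.806 and 0.611 times per intronic IDR peak in the bins centred at -75, -25, 25 and 75 bp, and at most 0.0833 times from 275 bp outwards. CGTCTC occurred 0.222 and 0.194 times in the bins on either side of the summit. CACACA occurred 0.0833 and 0.111 times in those bins and 0.861 and 0.389 times in the bins centred at -125 and 125 bp. At -75 and 75 bp it occurred 0.639 and 0.0556 times. Copies in a repeat overlap, and the pqn-41 window alone held 15 CACACA words, so a few windows can carry a bin. In the other intronic regions CACACA occurred 0.082 and 0.092 times beside the summit and 0.057 times at -125 and 125 bp. ACGCAG occurred 0.167 times at 25 bp, and the ZEB word 0 times in the bins on either side of the summit. The compound word GAGACGCAG, in which ACGCAG overlaps the reverse complement of CGTCTC, was in 6 intronic IDR windows (16.7%), among them Y111B2A.12, pqn-41, one peak of zfp-1 and mdt-26. It was in 30 other intronic windows (3%), 17 upstream IDR windows (18.7%) and 4.39% of all windows.

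**Figure D5:**
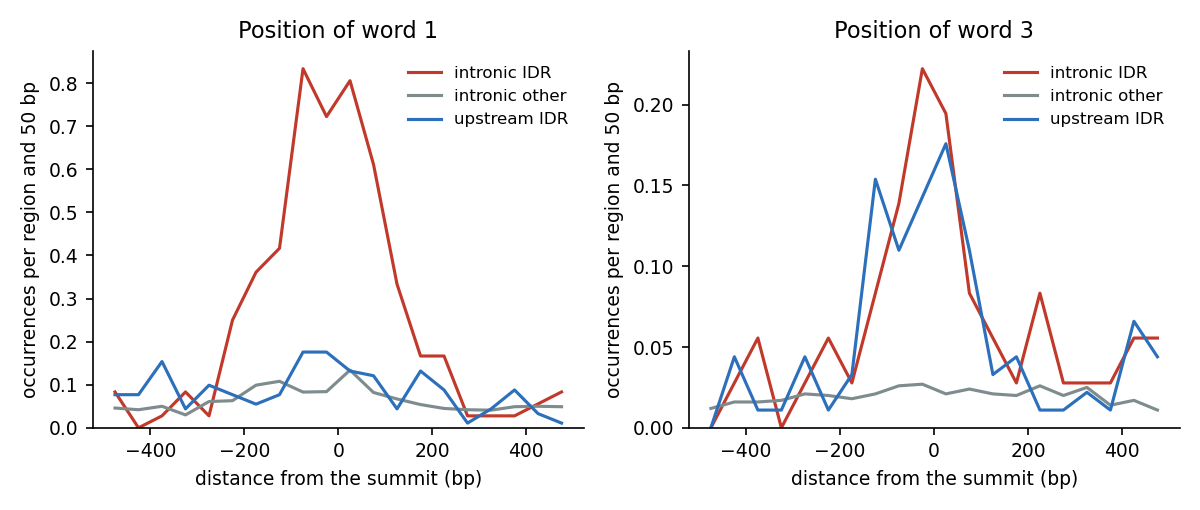
Occurrences per region and 50 bp of word 1 (GAGAGA, left) and word 3 (CGTCTC, right) against the distance from the summit (bp), for intronic IDR peaks, other intronic regions and upstream IDR peaks. In the intronic IDR peaks word 1 reaches 0.833 occurrences 75 bp before the summit and word 3 reaches 0.222 at 25 bp before it.

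Of the 36 intronic IDR peaks, 30 held at least 1 of words 1 to 4 of that plot, and 11 held both CGTCTC and ACGCAG. The 5 peaks at small RNA genes stood apart in this. Of them 0 held GAGAGA or CGTCTC or ACGCAG, 1 held CACACA (pxn-1) and 2 held the ZEB word (frm-7 and cfim-2). The third IDR peak with the ZEB word was in hsp-90. Away from small RNA genes GAGAGA was in 23 of 31 IDR peaks. Where no start lay within 1000 bp it was in 14 of 20. These subsets are small and were not tested.

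The genes with the most intronic regions differed in how many were IDR peaks. rhgf-3, a gene of 49355 bp, held 9, with signals of 23.4 to 43.7, and pde-4 held 8, of 22.8 to 43.4, with 0 IDR peaks in either. pqn-41 held 6, of which 2 were IDR peaks, and ppfr-1, a regulatory subunit gene of protein phosphatase 4, held 6 with 1 IDR peak. The next genes tied at 5 members, namely zfp-1 with 3 IDR peaks, the F-box gene T28B11.1 with 1, and aakg-1, an AMP kinase subunit gene, and kin-1, the protein kinase A catalytic subunit gene, with 0. In zfp-1 all 5 members had signals of at least 30.3. Of the 849 hosts, 718 held 1 member and 131 held more, and the genes with at least 2 IDR peaks were zfp-1, pqn-41 and let-526.

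How often a gene was a host followed how much intron it has. Of 16584 autosomal protein-coding genes with an intron, 849 were hosts (5.12%). The share was 1.10% of genes with up to 1000 bp of intron, 6.61% of those with 1000 to 5000 bp and 28.2% of those with more. The neuronal lists were read beside this. Of 29 axon guidance and adhesion genes, whose median summed intron length per gene was 7910 bp, 15 were hosts (51.7%, interval 34.4 to 68.6) with 0 IDR peaks. Their strongest regions were in unc-73 (43.0, in a region that also lies in F55C7.2), madd-4 (33.0) and the cadherin gene hmr-1 (32.3). Of 24 pan-neuronal and synaptic genes, 7 were hosts, led by unc-108 (50.1, the IDR peak among them), ida-1 (34.9) and the synaptobrevin gene snb-1 (31.1). Of 28 transcription factor genes of neuron fate, 2 were hosts, cfi-1 (26.5) and unc-42 (22.8). Of 27 ion channel and receptor genes, 6 were hosts, led by osm-9 (34.3), trp-4 (30.5) and unc-103 (29.3). The osm-9 summit lay 7 bp upstream of a tRNA gene.

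Among the other lists, 8 of 38 Hox, Wnt and TGF-beta genes were hosts, with the IDR peaks of daf-5 and daf-14 and a region of 36.6 in lit-1, the Nemo-like kinase gene. Heterochronic and vulval genes had 5 hosts of 18, led by lin-35 (33.2), lin-3 (29.0) and lin-42 (27.1). The start nearest to the lin-35 summit, 144 bp away, was that of C32F10.4. Muscle genes had 5 hosts of 25, led by unc-60 (28.6), lev-11 (26.6) and ttn-1 (24.3). Nuclear hormone receptor genes had 10 of 247, led by nhr-41 (34.7), nhr-236 (30.03) and nhr-243 (29.6). The nhr-41 summit lay 5 bp upstream of a tRNA gene. The ceh homeobox genes had 1 of 45, ceh-13 (24.8), and the cuticle collagens 1 of 133, col-33 (23.6). The ribosomal protein and translation genes had 0 of 80, and their median summed intron length per gene was 192.5 bp. Intronic IDR peaks lay in 2 of the 38 signalling genes and 1 of the 24 pan-neuronal genes, and in 0 genes of the other lists. Over all autosomal genes with an intron they lay in 32 of 16584 (0.193%), and in 1.24% of those with over 5000 bp of intron, so lists of this size can hold 0 at the share of all genes.

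The gene of the tagged factor, zag-1 (IV:3855843-3861569), had 0 pooled regions in its body. The nearest pooled region, itself an intronic member, was 23220 bp away.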

How the data were processed

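ChIP-seq regions of 2 biological replicates of L4 worms were analysed. Per the deposited listings, the authors called regions on each replicate's alignments with 1 further file, and again on the alignments of both, and derived the IDR list from those lists. The sources used here do not state the aligner, the caller, the IDR threshold, the role of the further file or the read depth. The deposited lists give a signal value per region in the caller's unit, a −log10 q-value within the list, and a summit offset. The most common width was 340 bp (pooled), 356 bp (replicate 1) or 276 bp (replicate 2). The labels give fragments of 150 to 350 bp.

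Summits were placed on Ensembl 115 annotation of WBcel235 (19985 protein-coding genes), with 1-based positions. Replicates were matched by overlap of at least 1 bp. Shares were compared by 2-sided Fisher's exact tests, adjusted by Benjamini-Hochberg within families of 6, 3, 5 and 5, at a threshold of 0.05, and have Wilson 95% intervals. The procedure was tested on simulated data. The named genes were the hosts of the 15 strongest intronic IDR peaks, the 5 genes with most members, with ties, up to 3 hosts per gene list, and zag-1. Others named were chosen after their values were seen. 1 listed name was not found. Members, words, lists and tests were chosen with earlier results of these data known. The sequence of 1 window is not reported here. Lists in the ce10 build and the control named in the labels were not used. Versions were scipy 1.17.1, statsmodels 0.14.6, pandas 2.3.3, numpy 2.4.6 and matplotlib 3.10.9 under Python 3.11.15.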

Additional observations from a re-analysis of the deposited data

How the results depend on the processing

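No paired analysis was possible because all samples form a single group. Of 142 alternative values, 103 kept direction and side of the threshold, 20 turned, 15 lost a call and 4 gained one. The settings of 1 region per gene, of 45 to 55% G and C, and of snoRNA and snRNA genes only (small RNA gene difference 12.0, still past the threshold) were chosen after seeing the data. Leaving out a replicate means using the strongest regions of the other in place of the combined set. The stronger 50% are the IDR peaks among the 123 strongest pooled regions, of which 13 are autosomal intronic. In comparisons within introns the weaker IDR peaks then count among the others. Causes of the changes were not tested, except that subsets hold fewer regions. Values are differences in percentage points.

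Against other intergenic regions, the share in both replicates passed with exons of every annotated gene (-4.33), upstream within 500 bp (-4.58) and summits over 1000 bp from a start (-4.43), and the IDR share passed at 500 bp (-2.35) and turned at 2000 bp (0.317). Against exonic regions the share in both replicates turned with exons of every gene (-0.150) and far from starts (-0.249), and spanned -5.03 to 3.03 leaving out each replicate in turn. The near-start difference turned with the stronger 50% of IDR peaks (-5.53), exons of every gene (-3.39), 500 bp (-1.28) and 1 region per gene (-2.97), and spanned -4.61 to -0.770 leaving out each replicate in turn. The small RNA gene difference lost its call with the stronger 50% (3.49), exons of every gene (5.71), genes covering the summit (0.878) and 1 region per gene (11.1), and spanned 3.79 to 7.43 leaving out each replicate in turn. The first-intron difference lost its call with 1 region per gene (16.7).

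In introns, CACACA lost its call with the stronger 50% (8.71), 50 bp windows (7.09) and 45 to 55% G and C (8.10), and spanned 12.3 to 15.7 leaving out each replicate in turn. At 45 to 55% G and C, GAGAGA (26.9) and CGTCTC (20.5) lost theirs. CAGGTA or CAGGTG turned with 1 region per gene (0.104). Against upstream IDR peaks, GAGAGA lost its call with the stronger 50% (33.9) and spanned 16.7 to 36.9 leaving out each replicate in turn. CACACA turned with the stronger 50% (-10.3) and 50 bp windows (-1.50), and ranged from -0.607 to -0.455. ACGCAG turned with 50 bp windows (-5.25) and whole regions (-1.19), and CAGGTA or CAGGTG with 50 bp windows (-1.10) and whole regions (-2.66), spanning -2.56 to 6.82 leaving out each replicate in turn. The lists hold no read counts, so depth limits cannot be given, and with 36 IDR peaks a share moves by several points per peak.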
